A study of Homo sapiens with 10 samples.

Results

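The regions described here were those called lost with TWEAK in SKBR3 cells, an established HER2-amplified breast cancer line of epithelial origin. Peaks of the 4 SKBR3 H3K27ac ChIP-seq lists that shared 1 bp or more on chromosomes 1 to 22 and X were merged. A merged region was called lost when a peak of both untreated lists overlapped it and no peak of either TWEAK list did. Of 62104 merged regions, 868 met this rule, which is 1.40% of all regions and 2.56% of the 33960 regions found in both untreated lists. Members were thus chosen by the presence of listed peaks, and so by their q-values, in the 4 SKBR3 libraries. The opposite pattern, with peaks from both TWEAK libraries and from no untreated library, was seen at 2865 regions (4.61%), called gained below. Of the remaining regions, 30803 were in all 4 lists.

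All cells were starved for 8 h in reduced-serum medium, and the treated cells then received TWEAK at 10 ng/ml for 48 h, renewed after 24 h. Untreated and TWEAK groups of SKBR3 had 2 libraries each, as did those of MDA-MB-453, another HER2 breast cancer line, whose lists the rule did not use. The 2 input samples, 1 per line, had no list of their own here. The methods call the cell line ChIP-seq libraries biological replicates, no source used here ties a library to a culture or a day, and each line is a single model of its subtype. Taking a peak no further than 1 kb from a transcription start site (TSS) as the mark of an active gene, 8 of 9 epithelial and HER2 markers, including ERBB2, KRT8 and EPCAM, were present in all 4 SKBR3 lists, and CDH1 was in none of them. Of 7 markers of other cell types, PTPRC, PECAM1 and KRT14 were in 0 lists, KRT5 was in both TWEAK lists only, and COL1A1, PDGFRB and CDH5 were in all 4.

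TWEAK is a cytokine of the TNF family, and its receptor Fn14 (TNFRSF12A) signals through TRAF adaptors to the NF-κB and MAP kinase pathways, the latter ending in AP-1 factors. H3K27ac, the acetylation of lysine 27 of histone H3, marks active promoters and enhancers, and is set by the acetyltransferases p300 and CBP and removed by histone deacetylases. In luminal and HER2 breast cells many active enhancers are bound by FOXA1, GATA3, GRHL2 and TFAP2 factors, whereas GC boxes, which bind SP and KLF factors, are common in CpG-rich promoters.

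Sequences of 8 lost regions are shown because each carries, in capitals, a match to a motif whose share is compared further on. Each is named by its nearest protein-coding gene. The sequences are the hg38 forward strand, 60 bases either side of the match where the region allows. The first 3 hold a TFAP2 match (GCCNNNGGC). TOMM20L is the window chr14:58396148-58396276, in a highly ranked promoter region, CTXN2 is chr15:48177888-48178016, and TRAF3 is chr14:102868369-102868497, in an intron of the gene. DBNL (chr7:44036790-44036919) and TROAP (chr12:49330244-49330373) hold NF-κB matches, and the DBNL match overlaps a TFAP2 match that begins 4 bases upstream. IRF5 (chr7:128961134-128961260) holds an AP-1 match (TGACTCA or TGAGTCA). SOCS2 (chr12:93536266-93536392) and IRF1 (chr5:132509132-132509246) hold FOXA matches (TATTTAC or TGTTTAC), the latter on the reverse strand.
TOMM20L: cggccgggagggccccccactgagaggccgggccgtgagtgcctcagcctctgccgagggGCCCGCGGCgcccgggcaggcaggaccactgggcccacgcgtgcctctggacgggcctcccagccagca
CTXN2: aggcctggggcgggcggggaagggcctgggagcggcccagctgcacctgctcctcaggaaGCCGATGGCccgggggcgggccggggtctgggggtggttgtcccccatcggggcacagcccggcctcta
TRAF3: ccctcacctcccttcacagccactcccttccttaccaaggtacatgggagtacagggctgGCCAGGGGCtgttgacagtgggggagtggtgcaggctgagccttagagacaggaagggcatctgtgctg
DBNL: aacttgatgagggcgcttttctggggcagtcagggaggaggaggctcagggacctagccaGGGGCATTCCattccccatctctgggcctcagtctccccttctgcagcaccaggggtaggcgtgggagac
TROAP: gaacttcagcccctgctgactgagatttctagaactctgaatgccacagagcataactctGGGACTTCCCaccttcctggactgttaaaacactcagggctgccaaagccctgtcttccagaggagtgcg
IRF5: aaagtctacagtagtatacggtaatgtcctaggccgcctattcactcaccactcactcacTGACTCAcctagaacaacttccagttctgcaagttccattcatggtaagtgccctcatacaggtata
SOCS2: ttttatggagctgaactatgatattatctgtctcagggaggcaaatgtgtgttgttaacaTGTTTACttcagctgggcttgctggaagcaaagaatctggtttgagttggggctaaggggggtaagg
IRF1: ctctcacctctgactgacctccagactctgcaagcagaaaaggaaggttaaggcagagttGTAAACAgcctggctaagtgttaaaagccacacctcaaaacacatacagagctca

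A lost region also covered the whole RefSeq promoter of ANAPC4, a subunit of the anaphase-promoting complex (GRCh38.p14, chr4:25377013-25377262, plus strand, the 250 bases before the start). It was chosen after its values were seen, as a promoter inside a lost region with 7 GC boxes (GGGCGG on either strand, in capitals) and no annotated UTR.
ANAPC4: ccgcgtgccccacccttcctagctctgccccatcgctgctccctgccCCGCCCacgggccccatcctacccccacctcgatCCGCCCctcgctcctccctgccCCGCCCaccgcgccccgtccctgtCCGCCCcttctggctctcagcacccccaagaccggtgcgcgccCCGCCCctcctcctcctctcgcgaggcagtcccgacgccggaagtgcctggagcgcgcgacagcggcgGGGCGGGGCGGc
In all, 116 of 35116 RefSeq promoters overlapped a lost region, and 85 of the 868 regions (9.79%) overlapped a promoter. A GC box was found in 73 of the 116 promoters (62.9%) and in 14973 (42.6%) of all RefSeq promoters, each 250 bases before to 50 after the start. Many of the latter had no SKBR3 peak. For merged regions with their midpoint within 1 kb of a TSS, a GC box was looked for in the 1000 bp around the midpoint. It was found for 62.2% (55.6% to 68.3%) of lost regions, 62.0% of all regions and 71.6% of regions of all 4 lists. In this window, lost promoter regions did not have it more often than other promoter regions with a peak.

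The lost regions were weak peaks in the untreated cells. The strength of a peak is given here as the peak caller's −log10 q, where q is the p-value of enrichment over input adjusted for the number of tests, and as its percentile among the peaks of its own list, 100 being the strongest. In untreated replicate 1 the −log10 q of the 868 regions ran from 1.04 to 5.95 with a median of 1.59, and in untreated replicate 2 from 1.10 to 10.7 with a median of 2.01. The median percentile was 17.9 in replicate 1 and 16.1 in replicate 2, against 64.7 and 63.3 for the regions of all 4 lists in the same libraries. Median fold enrichment was 2.84 and 3.0, against 4.48 and 5.42. In both lists the members therefore sat near the lower end, where the weakest listed peak had a −log10 q of 1.00.

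**Figure D1:**
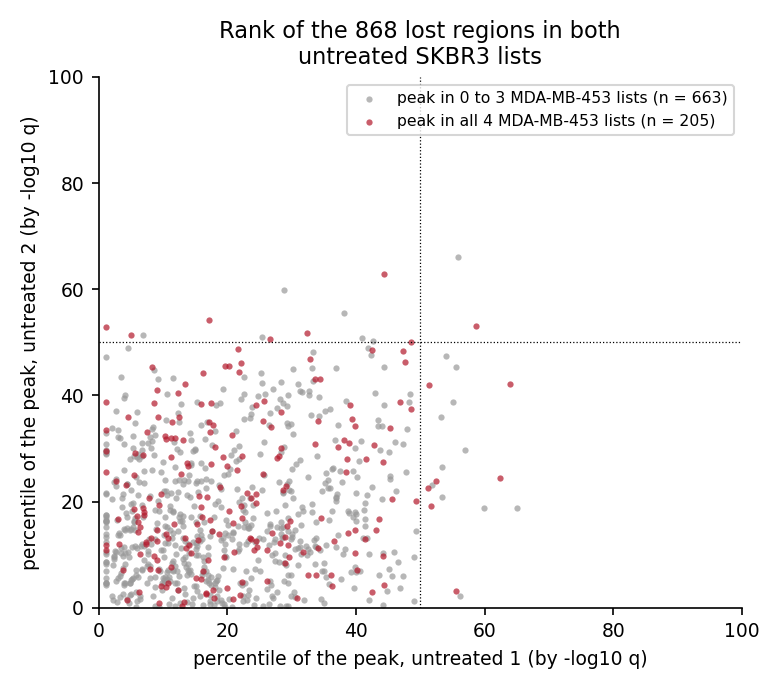
Percentile of the peak (by −log10 q within its list) of each of the 868 lost regions in untreated SKBR3 replicate 1 (x axis) and replicate 2 (y axis); red points are the 205 regions with a peak in all 4 MDA-MB-453 lists, grey points the other 663, and dotted lines mark the 50th percentile. A total of 836 regions lie below the 50th percentile on both axes, and red and grey points are spread over the same area.

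No region was strong in both untreated libraries. A q under 1e-05 was reached by 3 regions in replicate 1, by 22 in replicate 2 and by 0 of 868 in both. A q under 0.01 in both lists was reached by 150 regions (17.3%), against 27463 (80.9%) of all regions found in both untreated lists. The untreated replicates also placed the peaks loosely. Although 866 of 868 regions had a single peak in each list, the stretch covered by both peaks had a median of 298.5 bp, or 44.5% of the merged region. It made up at least 50% of the region in 388 cases (44.7%) and under 10% in 50 cases (5.76%). By −log10 q, 615 regions (70.9%) were higher in replicate 2, as were 80.6% of all regions in both untreated lists. By percentile, which removes the difference in scale between the lists, it was 398 (45.9%), and 44.8% for all.

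Whether a region of both untreated lists was lost followed its rank and its width. Since rank and width come from the lists that chose the regions, these shares are a description and were not tested. The share lost was 27.4% (164 of 598; 95% Wilson interval 24.0% to 31.1%) up to a mean percentile of 10, 15.3% between 10 and 20, 7.35% between 20 and 30, 3.06% between 30 and 40, 0.709% between 40 and 50, and 0.0291% (6 of 20640) above 50. Intervals here and below cover counting error only. Gained regions, ranked in the TWEAK lists, thinned out less steeply, from 32.0% up to a percentile of 10 to 10.1% between 40 and 50 and 2.21% above 50. The TWEAK libraries differed in this, with a median percentile of gained regions of 23.1 in replicate 1 and 39.1 in replicate 2, the longest list. Lost regions were also narrow, with a median of 793.5 bp (range 226 to 3607 bp), against 1101 bp for gained regions and 2402 bp for regions of all 4 lists. Among regions with a mean percentile of up to 30, the share lost was 59.6% at widths up to 500 bp, 25.3% from 500 to 1000 bp, 7.08% from 1000 to 2000 bp and 1.57% above 2000 bp. A wider merged region has more bases in which a TWEAK peak can fall, and the TWEAK peaks of a retained region add to its width. Width thus entered the rule itself.

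**Figure D2:**
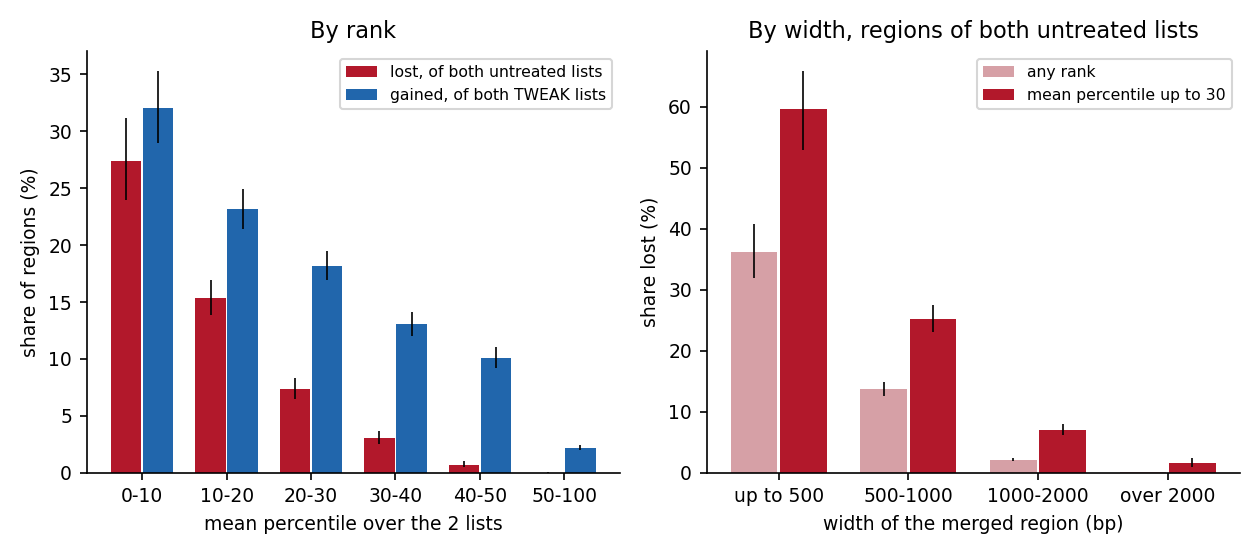
Left, share of regions lost (red, of regions in both untreated lists) and gained (blue, of regions in both TWEAK lists) by mean percentile over the 2 lists that define each group; right, share of regions in both untreated lists that were lost, by width of the merged region in bp, at any rank (pale) and at a mean percentile up to 30 (dark). Error bars are 95% Wilson intervals. The share lost drops from 27.4% to 0.0291% with rank and, at low rank, from 59.6% to 1.57% with width.

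The border of the rule can be seen from both sides. Here and below, a region is called near the gene with the nearest protein-coding TSS, at whatever distance. Just inside, by peak strength, were the 3 members with the lowest −log10 q, near RIT2, PDCD6 and SMAD6. Each had 1.04 in untreated replicate 1, and they had 1.47 in replicate 2. Just outside, by bases shared with a TWEAK peak and thus by another measure, were regions near CPA4, SCAMP4 and MRPL37, in which a peak of TWEAK replicate 1 shared 3, 6 and 12 bp with the untreated peaks. Their −log10 q was 1.56, 1.37 and 2.11 in untreated replicate 1, 1.47, 3.34 and 1.66 in untreated replicate 2, and 1.21, 2.29 and 2.57 in that TWEAK peak. A further 2289 regions of both untreated lists were in exactly 1 TWEAK list, 1197 of them in replicate 2 and 1092 in replicate 1. The median −log10 q of that TWEAK peak was 2.26. With only peaks of q under 1e-05 in every list 195 regions were lost, and 0 of them overlapped any of the 868. That 0 was fixed in advance, since no member had such a peak in both untreated lists. Leaving out untreated replicate 1 gave 3333 regions, untreated replicate 2 gave 5879, TWEAK replicate 1 gave 1997 and TWEAK replicate 2 gave 2087.

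By position, 222 lost regions (25.6%, 22.8% to 28.6%) had their midpoint within 1 kb of a TSS of GENCODE release 44. The share was 11.3% for gained regions, 34.1% for regions of all 4 lists and 24.2% for all regions. A protein-coding TSS lay within 1 kb of 183 lost regions (21.1%). Midpoints fell in an intron of a protein-coding gene in 448 cases (51.6%), in an exon in 112 (12.9%) and outside such genes in 308 (35.5%). Only 52 regions (5.99%) were over 50 kb from any TSS. Among regions with a mean percentile up to 30, 23.7% of the 727 lost regions and 15.3% (14.4% to 16.3%) of the 5261 regions kept in at least 1 TWEAK list were within 1 kb of a TSS. Lost regions made up more of the lower part of that range, and within it the shares were 23.8% (17.9% to 30.8%) of 164 lost and 13.1% (10.3% to 16.6%) of 434 retained regions up to a percentile of 10, 21.2% (17.1% to 26.1%) and 15.1% (13.5% to 16.9%) between 10 and 20, and 26.7% (21.6% to 32.6%) and 15.7% (14.5% to 17.04%) between 20 and 30. At widths up to 1000 bp and a percentile up to 30 they were 23.6% (20.1% to 27.6%) of 499 lost and 16.6% (14.6% to 18.9%) of 1178 retained regions. The order turned against stronger peaks. At widths up to 1000 bp and any rank, a TSS lay within 1 kb of 25.3% (21.97% to 28.9%) of lost regions and of 42.8% (40.7% to 44.98%) of regions of all 4 lists.

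Most lost regions had an H3K27ac peak that was still listed after TWEAK within 50 kb, but fewer had one close by. The nearest TWEAK peak was a median of 5.67 kb away, within 1 kb for 92 regions (10.6%), within 5 kb for 404 (46.5%) and within 50 kb for 786 (90.6%). For gained regions the nearest untreated peak was a median of 10.6 kb away, but the untreated lists are shorter than the TWEAK lists. No background set of regions is given for these distances. The 2424 regions of all 4 lists within 50 kb of a lost region had median percentiles of 66.3 and 65.1 in the untreated lists and 64.0 and 64.9 in the TWEAK lists. Over all 30803 regions of all 4 lists the medians were 64.7 and 63.3, and 64.5 and 68.0, in the same order. The last is that of the longest list, and a percentile shifts with the length of its list, so no change with TWEAK is read from them. These values come from the libraries that chose the regions, and no test was run on them.

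Among promoter regions, the 183 regions within 1 kb of a protein-coding TSS belonged to 182 genes. For 88 of these genes (48.4%) a TWEAK peak still lay within 1 kb of an annotated TSS of the same gene. For 94 genes no TSS had a TWEAK peak that close. A gene with more annotated TSS positions can keep a TWEAK peak more easily, and no share for other genes is given, so neither count is read as high or low. TOMM20L, a paralogue of the mitochondrial import receptor TOMM20, had the highest ranked of these regions (chr14:58396049-58396597, 0.393 kb from the TSS, in an exon). Its −log10 q was 4.66 in untreated replicate 1 and 6.16 in replicate 2, percentiles 58.7 and 53.1, and the nearest TWEAK peak was 29.3 kb away. CFAP73, a protein of motile cilia, had a region at its TSS with −log10 q of 2.94 and 9.26. The replicates thus ranked it apart, at percentiles 44.4 and 62.9. MTMR4, a phosphoinositide phosphatase of endosomes, had an intronic region 0.093 kb from the TSS with −log10 q of 3.97 and 4.98, and CTXN2 had one 0.106 kb from the TSS with 3.32 and 5.5. The region at SLC25A46, an outer mitochondrial membrane protein, had 3.23 and 4.80 and was 353 kb from the nearest TWEAK peak. The region at ASB13, a substrate adaptor of ubiquitin ligases, had 3.20 and 5.17. CFAP73 and MTMR4 still had a TWEAK peak within 1 kb of another TSS, whereas TOMM20L, CTXN2, SLC25A46 and ASB13 did not.

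The highest ranked region of all was at the TSS of the non-coding RNA CASC9 on chromosome 8. The nearest protein-coding TSS, that of the nuclear receptor gene HNF4G, was 129 kb away. The region had a −log10 q of 4.21 in untreated replicate 1 and 10.7 in replicate 2, at percentiles 55.9 and 66.2. Ranked by fold enrichment it stood low, at percentiles 1.74 and 27.9. The same held for the higher ranked of 2 lost regions near TRPS1, a repressor of the GATA family made in luminal breast cells, which lies on the same chromosome. That region, 156 kb from the nearest TRPS1 TSS, had −log10 q of 2.67 and 5.66 (percentiles 40.9 and 50.9) and fold enrichment of 1.97 and 2.33 (percentiles 0.157 and 0.559). The other, 229 kb from it, had a fold enrichment of 1.77 and 1.85. On these regions the ranks by significance and by fold thus disagreed. Chromosome 8 had the highest share of its regions in both untreated lists called lost, 3.45% (43 of 1248), and chromosome 6 the lowest, 1.63% (30 of 1845).

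The other highly ranked regions lay away from promoters of the coding genes. A region 7.75 kb from the TSS of DBNL, an actin-binding adaptor (chr7:44036689-44037099), had −log10 q of 4.17 and 4.65 and held 2 NF-κB matches and a TFAP2 match. One lay 248 kb from BAMBI, a decoy receptor of TGF-β signalling, with −log10 q of 4.10 and 3.77. The widest lost regions were near ZC3H3 (3607 bp), PREX1 (3540 bp), CASZ1 (3395 bp), MACROD1 (3314 bp) and TROAP (3018 bp). They were weak as well, with percentiles between 15.3 and 36.04 in all but the ZC3H3 region, which had 42.1 in untreated replicate 1 and 1.56 in replicate 2.

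**Figure D3:**
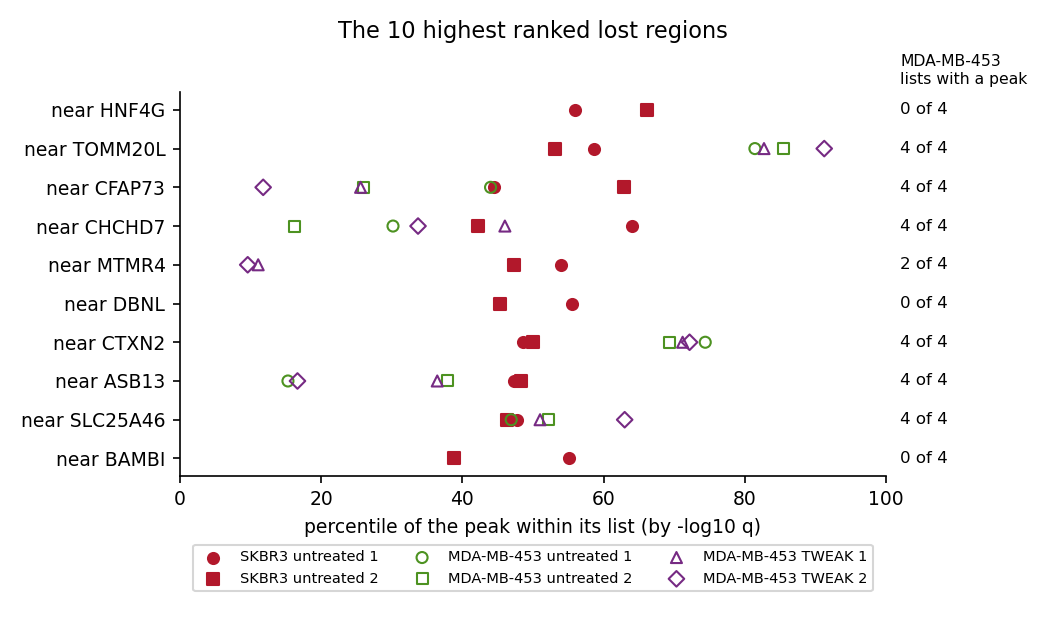
Percentile of the peak within its list (x axis, by −log10 q) for the 10 lost regions with the highest mean percentile in untreated SKBR3 cells, each named by its nearest protein-coding gene; filled red marks are the untreated SKBR3 libraries, open marks the MDA-MB-453 libraries that had a peak there, and the number of MDA-MB-453 lists with a peak stands at the right. TOMM20L and CTXN2 rank higher in every MDA-MB-453 library than in SKBR3, and 3 regions have no MDA-MB-453 peak.

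Lost regions were scattered over the genome and over genes. Of 1-Mb windows that held any region, 2072 had no lost region and 483 had 1. The highest count was 6, reached among others at chr19:3000001-4000000 (near GNA11, NFIC, CACTIN and ATCAY, among 77 regions, with 0 gained). The next was 5, reached among others at chr3:53000001-54000000, near PRKCD, TKT and CACNA1D. The 868 regions had 811 nearest protein-coding genes. Gained regions had 2150, and 164 genes were shared, which is 20.2% of the former and 7.63% of the latter. Of the 12659 genes nearest a region of both untreated lists, 1850 (14.6%) were also nearest a gained region. Genes with more regions can enter both sets more easily, and this was not adjusted for.

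Single genes with 3 or more lost regions were few, and were picked out after their values were seen. There were 9 such genes. PREX1, an exchange factor of the GTPase Rac that is often abundant in luminal breast cancer, had 4 lost regions between chr20:48641661-48770566, at mean percentiles of 1.87 to 29.3. They lay among 41 regions nearest that gene, of which 19 were in all 4 lists and 0 were gained. NFIC, a transcription factor of the nuclear factor I family, had 3 lost of 19 regions, CACNA1D, a calcium channel subunit, 3 of 27, KCNMA1, a potassium channel, 3 of 51, and GADD45G, a stress-response gene, 3 of 24. LRPAP1, a chaperone of LDL receptor family proteins, was the only gene with 2 or more lost regions whose every region was lost. Its 3 regions, between chr4:3532139-3614657, had −log10 q of 2.12, 2.0 and 1.04 in untreated replicate 1 and 4.0, 2.32 and 2.31 in replicate 2. The promoter one was 46.7 kb from the nearest TWEAK peak, and it had a peak in 3 of 4 MDA-MB-453 lists.

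Genes of the pathways tied to TWEAK and to the cell type were then looked up in 10 lists by nearest protein-coding TSS. The measure beside each list is the share of its regions in both untreated lists that was lost, which was 2.56% over all genes. Among 40 genes of the NF-κB pathway and its targets, 4 had a lost region (4 of 75 regions, 5.33%) and 14 had a gained one. By regions, 18 of 161 near these genes were gained (11.2%, against 4.61% of all regions), and in the other 9 lists the share gained ran from 3.36% to 9.85%. TRAF3, the adaptor that keeps the non-canonical NF-κB kinase NIK low, had a region in an intron, 1.78 kb from a TSS (chr14:102867960-102869020). Its −log10 q was 2.93 and 3.7, percentiles 44.3 and 38.2. IRF1, an interferon-induced transcription factor, had a region 0.179 kb from an annotated TSS with 1.67 and 2.54 (percentiles 20.1 and 25.2). Another TSS of IRF1 still had a TWEAK peak within 1 kb. The region assigned to CD83, a surface protein of activated dendritic cells, was 93.1 kb from the gene, with 1.57 and 6.4, and that assigned to BCL3, a nuclear IκB protein, was 15.1 kb away with 1.5 and 1.46. Of 24 genes of the TWEAK and TNF receptors, 0 had a lost region and 2 a gained one. No lost region was assigned either to 22 AP-1 and MAF genes (0 lost, 6 gained), 21 ERBB receptor and ligand genes (0 lost, 8 gained) and 26 lipid and sterol synthesis genes (0 lost, 4 gained), with 19, 58, 64 and 63 regions in both untreated lists in these 4 lists. With so few regions in each list, a count of 0 does not set a list apart from the 2.56% of all genes.

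Among 26 luminal breast transcription factors and related genes, 5 had a lost region (6 of 197 regions, 3.05%) and 7 a gained one. OVOL1, which represses mesenchymal genes, had a region of 1853 bp, 2.44 kb from its TSS, with −log10 q of 3.09 and 2.34. The region 82.99 kb from PRLR, the prolactin receptor, had 1.79 and 1.86, that near TOX3 had 1.41 and 2.25, and that in TFAP2A had 1.45 and 1.25. Of 29 epithelial junction and keratin genes, 3 had a lost region (4 of 67 regions, 5.97%) and 7 a gained one. Of these, DSP, which anchors desmosomes to keratin, had an intronic one with 1.53 and 1.49, and KRT8 had 1.40 and 3.01 at the higher ranked of its 2. This KRT8 region was 22.1 kb from the TSS. Of 33 interferon and STAT genes, 3 had a lost region (4.11%) and 5 a gained one. The region assigned to SOCS2, a feedback inhibitor of JAK and STAT signalling, was 1966 bp wide and 33.5 kb from its TSS, with 2.72 and 2.76. That assigned to IRF5 was 14.1 kb away, with 1.22 and 2.29. MMP2, a gelatinase, was the only one of 30 mesenchymal genes (1.01%), and CCNB1, cyclin B1, the only one of 26 cell cycle genes (0.952%), with 1.44 and 2.07, and 1.31 and 3.14. Another TSS of MMP2 still had a TWEAK peak within 1 kb, and the region assigned to CCNB1 was 17.6 kb from its TSS. Each list held at most 6 lost regions, too few to set any list apart from all genes.

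MDA-MB-453 offered the same treatment in libraries that the rule had not used. The question was whether regions lost in SKBR3 were listed less often after TWEAK in the other line too. A peak overlapped 28.5% and 29.5% of the 868 regions in the untreated libraries and 29.5% and 29.3% in the TWEAK libraries. The groups overlapped, with means of 29.0% ± 0.733 (SD, n = 2) and 29.4% ± 0.163 (SD, n = 2). The difference, untreated minus TWEAK, was −0.403 percentage points (exact two-sided permutation test, p = 1, smallest p possible 0.333). Over all 62104 SKBR3 regions it was −0.0781. By pattern, 7 of the 868 regions (0.806%, 0.391% to 1.66%) were in both untreated and neither TWEAK list of MDA-MB-453, against 235 (0.378%) of all regions. The reverse pattern held for 5 (0.576%), and for 0.378% of all regions.

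**Figure D4:**
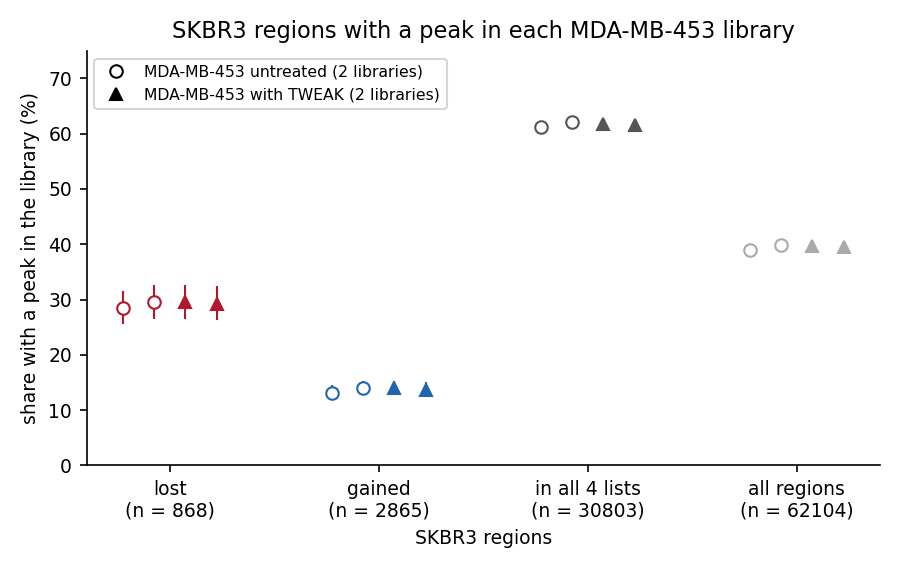
Share of SKBR3 regions (y axis, %) with a peak in each MDA-MB-453 library, for lost, gained and 4-list regions and for all regions; open circles are untreated and filled triangles TWEAK libraries, with 95% Wilson intervals where they exceed the mark. Within every set the untreated and TWEAK libraries lie at about the same height, near 29% for lost regions, 14% for gained regions and 62% for regions of all 4 lists.

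Some of the named regions ranked high in MDA-MB-453, but as a set the lost regions ranked below other shared regions there. All 4 MDA-MB-453 lists held a peak at 205 of the 868 regions (23.6%), and none of them did at 567 (65.3%). Over all 62104 SKBR3 regions, all 4 lists held a peak at 22588, a larger share. By library, between 39.0% and 39.9% of all SKBR3 regions had an MDA-MB-453 peak. At the 205 regions the median percentile was 48.5 and 50.6 in the untreated and 52.1 and 47.6 in the TWEAK libraries. The difference in means was −0.313 (exact two-sided permutation test, p = 1, smallest 0.333), well inside the spread between libraries. In SKBR3 the median mean percentile of the 205 regions was 21.1. At the 22588 SKBR3 regions with a peak in all 4 MDA-MB-453 lists, the MDA-MB-453 medians were higher. They were 66.5 and 67.8 in the untreated and 67.8 and 67.1 in the TWEAK libraries. A TSS lay within 1 kb of 40.5% (34.0% to 47.3%) of the 205 regions and of 18.5% (15.5% to 21.9%) of the 567. This split is not given for other SKBR3 regions, so it is not read as particular to lost regions. The TOMM20L region had percentiles of 81.4 and 85.5 in untreated and 82.7 and 91.3 in TWEAK libraries of MDA-MB-453. The region near SOCS2 had 89.3, 87.8, 89.1 and 87.5 in the same order, CTXN2 had 74.4, 69.3, 71.2 and 72.2, and the DSP intron had 73.1, 76.1, 72.5 and 69.5. At each of these all 4 MDA-MB-453 libraries lay above both untreated SKBR3 libraries. TOMM20L and CTXN2 were among the highest ranked lost regions in SKBR3 as well. The MDA-MB-453 lists are shorter than those of SKBR3, and a percentile shifts with the length of its list. MTMR4 was found in both TWEAK lists alone, at 11.1 and 9.6. The 7 regions that followed the lost pattern in both lines included those near LYPD2, DOCK1, PRAG1 and KIF2A. Their MDA-MB-453 percentiles in the untreated libraries ran from 5.84 to 21.3, so they were weak peaks in that line as well.

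Motifs were counted on both strands in the 1000 bp around each midpoint. The share of all 62104 regions with a match is given beside the lost share. The median width was 793.5 bp for lost regions and 2402 bp for regions of all 4 lists. The window thus reached past the edges of most lost regions and covered only part of most regions of all 4 lists. Shares here and below are those of the window, and a match counted for a lost region can lie outside it. NF-κB matches were in 12.3% (10.3% to 14.7%) of lost regions and 15.1% of all. AP-1 matches were in 16.5% (14.2% to 19.1%), against 23.9% of all and 36.5% of gained regions. TFAP2 matches were in 42.2% (38.9% to 45.5%), against 32.1% of all. GC boxes were in 36.3% (33.2% to 39.5%), against 29.1% of all and 37.9% of regions of all 4 lists, and GATA matches (AGATAA or AGATAG or TGATAA or TGATAG) in 63.5%, against 72.8%. The base composition differed too, with a median G+C content of 49.8% in lost, 46.3% in all and 43.6% in gained regions, and a median of 14, 12 and 9 CpG dinucleotides. G+C content moves with the TFAP2 and GC box shares, and its part in them was not tested.

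Away from promoters the same order held for TFAP2, AP-1 and GATA matches. For NF-κB the lost share was lower too, but the 13.8% of all regions over 1 kb from a TSS lay within its counting error. For GC boxes the order against regions of all 4 lists was reversed. They were in 27.4% of lost and 20.5% of 4-list regions over 1 kb from a TSS. Of the 646 lost regions over 1 kb from a TSS, 36.8% (33.2% to 40.6%) had a TFAP2 match, against 28.8% of regions of all 4 lists and 21.99% of gained regions over 1 kb from a TSS. An AP-1 match was in 17.6% (14.9% to 20.8%), against 26.1% and 36.7%. An NF-κB match was in 11.3% (9.08% to 14.0%), against 12.6% and 29.3%, and C/EBP matches (TTGCNNAA) in 35.6%, against 43.3% and 48.9%. FOXA matches were in 32.4%, 33.4% and 33.6%, and STAT matches (TTCNNNGAA) in 29.1%, 28.2% and 29.7%, so these differed by less than the counting error of the lost set. CTCF matches were in 4.64%, 4.52% and 4.33%. GRHL matches (AACNNGTT) were in 14.4% (11.9% to 17.3%), against 18.4% and 19.0%. E-boxes (CACGTG) were in 13.8% (11.3% to 16.6%), against 11.6% and 9.72%. TEAD matches (ACATTCC) were in 16.7% (14.0% to 19.8%), against 19.1% and 20.4%. RUNX matches (TGTGGTT) were in 16.1% (13.5% to 19.1%), against 17.8% and 20.6%.

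**Figure D5:**
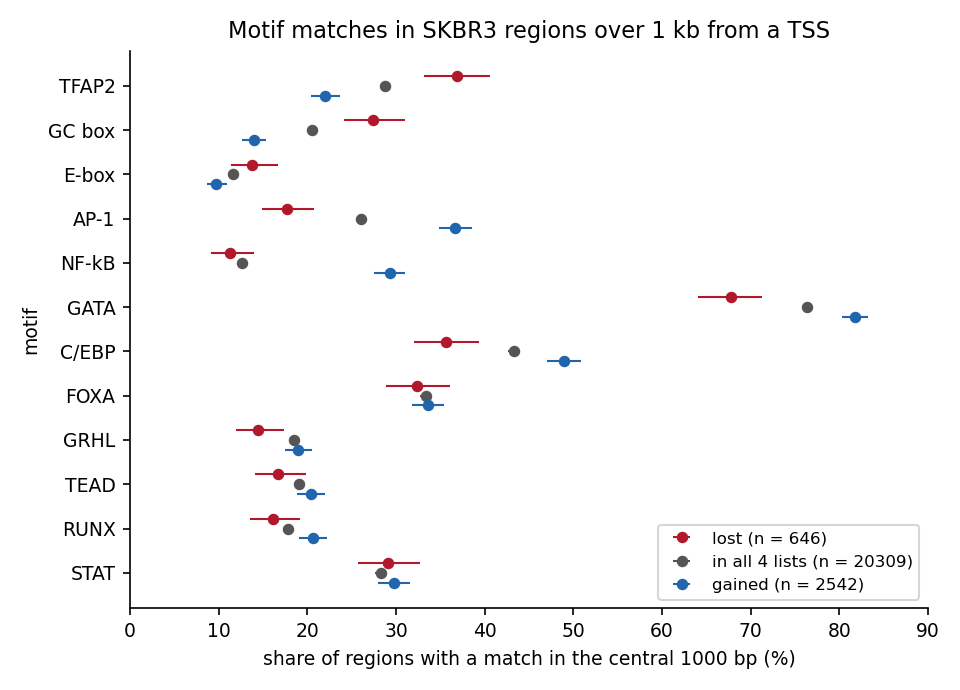
Share of regions over 1 kb from a TSS (x axis, %) with at least 1 match to each of 12 motifs (y axis). Matches were counted in the 1000 bp around each midpoint. Lost regions are red, 4-list regions grey and gained regions blue, and bars are 95% Wilson intervals. Lost regions sit highest for TFAP2 and GC boxes and lowest for AP-1, GATA, C/EBP and GRHL, and the sets overlap for FOXA and STAT. They also sit highest for E-boxes and lowest for NF-κB, TEAD and RUNX, but there their intervals overlap those of 4-list regions.

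The comparison was repeated within 1 range of rank, so that weak regions were set against weak regions. Among regions over 1 kb from a TSS with a mean percentile up to 30, AP-1 matches were in 18.0% (15.04% to 21.4%) of 555 lost regions and 25.6% (24.4% to 26.9%) of 4456 regions kept in at least 1 TWEAK list. TFAP2 matches were in 35.5% (31.6% to 39.6%) and 27.2% (25.9% to 28.5%). With regions restricted further to widths up to 1000 bp, AP-1 matches were in 18.9% (15.3% to 23.1%) of 381 lost and 25.6% (22.9% to 28.4%) of 982 retained regions, intervals that overlapped slightly. TFAP2 then stood at 32.8% and 32.3%, with no difference beyond counting error, GC boxes at 26.8% (22.6% to 31.4%) and 18.3% (16% to 20.9%), GATA at 66.9% (62.1% to 71.5%) and 74.8% (72.0% to 77.5%), and C/EBP at 34.6% (30.04% to 39.6%) and 43.5% (40.4% to 46.6%). NF-κB matches were in 11.02% and 11.9%, and GRHL matches in 15.5% (12.2% to 19.5%) and 17.0%. The higher TFAP2 share of lost regions was seen only in the wider comparison, whereas the GC box share was higher, and the GATA and C/EBP shares lower, in the narrow one too. The width of a retained region includes its TWEAK peaks, so the cut on width itself depends on whether a region was lost. How far this cut changed the shares was not tested. The retained regions of this narrow set still had a larger median width, 818 bp against 675 bp, and a lower median G+C content, 45.1% against 47.4%.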

How the data were processed

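The measurements were H3K27ac ChIP-seq peaks, listed for 4 SKBR3 and 4 MDA-MB-453 libraries with or without TWEAK. What the authors deposited is 1 peak list per library. The methods name Bowtie2 as aligner (hg38), MACS2 as peak caller, with input taken off, and bedtools for dropping peaks in blacklisted stretches. Versions and calling options are not given in the sources used here. Besides the position of a peak, the authors' deposited columns hold a score in whole numbers, the fold enrichment relative to background, and p- and q-values as −log10, made separately for each library and not scaled between libraries. No reads were analysed here, so sequencing depth is unknown and no interval can be given for a peak's strength. SKBR3 lists held 45157 and 43684 (untreated) and 45371 and 51687 (TWEAK) peaks on chromosomes 1 to 22 and X, of which between 39.4% and 52.6% had a q under 1e-05. The study's own signal test (DiffBind) needs reads and was replaced by presence or absence in the lists. Absence may mean signal slightly below the calling threshold.

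Names and sequence ends were checked against hg38, with 0 misfits. Merging, overlap, percentiles and motif searches were written in Python 3.11.15 (numpy 2.4.6, pandas 2.3.3, scipy 1.17.1) and tested on simulated data. Percentiles were taken by −log10 q within a list. Genes came from GENCODE release 44 and promoter sequences from RefSeq (GRCh38.p14). MDA-MB-453 groups were compared by exact two-sided permutation of the library labels (6 assignments). The members, gene lists and motifs were chosen with earlier results of these data known. Named regions were the 10 highest ranked, the 5 widest, the 5 highest ranked at a coding TSS, up to 5 with the same pattern in MDA-MB-453, up to 3 per gene list, the windows with the most members, and 3 regions on each side of the border, apart from some that are not reported here. Alternatives were a stricter q, SKBR3 lists of equal size, a minimum overlap, merging across gaps, other TSS and motif windows, ranking by fold enrichment, a replicate block, and leaving out each library.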

Additional observations from a re-analysis of the deposited data

Results flagged for a closer look

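Outside the chromosomes analysed, the SKBR3 lists gave 113 merged regions on other sequences of the assembly, which no comparison above used. Of these, 6 were in both untreated lists and neither TWEAK list. The flag came from a fixed limit of 3 for counts expected to be 0, an expectation that nothing sets here. Passing that limit is therefore not read as a result. The 6 regions are 5.31% of the 113 (95% Wilson interval 2.46% to 11.1%) and 9.38% (4.37% to 18.98%) of the 64 in both untreated lists, against 1.40% and 2.56% on chromosomes 1 to 22 and X. With 6 regions the difference was not tested. No control sample with a list of its own was at hand to set this against.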

How the results depend on the processing

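The number of lost regions depended on the threshold, and so did which regions they were. With only peaks of q under 1e-05 there were 195 lost regions, with 41.0% within 1 kb of a TSS, 20% with an NF-κB match and a median width of 1466 bp. Of these, 0 overlapped the 868, as had to be, since no member reached that q in both untreated lists. With SKBR3 lists of equal size there were 1303 (92.7% of the 868 among them), with 21.6% at a TSS and a median width of 850.0 bp. When a peak had to cover 50% or more of a merged region to count, there were 1309 (57.5% of the 868 among them), with 31.2% at a TSS, 15.05% with an NF-κB match and a median width of 1104 bp. Merging peaks up to 1 kb apart gave a median width of 816.5 bp, while the count and the shares stayed close. The TSS share was 38.2% within 2.5 kb, 21.1% for protein-coding TSS, and 29.95% from the edge of the region, a choice made after seeing the data. In a window of 500 bp, NF-κB matches were in 6.91% and AP-1 matches in 9.10%.

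Leaving out 1 SKBR3 library at a time gave between 1997 and 5879 lost regions, a TSS share of 17.8% to 24.6%, an NF-κB share of 11.7% to 13.3%, an AP-1 share of 15.6% to 19.1% and a median width of 412 to 908 bp. Each such setting drops a condition of the rule, so counts can only be higher. In MDA-MB-453, leaving out 1 library of either line gave a difference in share of −0.922 to 0.576 percentage points and in median percentile of −2.23 to 2.25. The sign of these differences was not stable. Without MDA-MB-453 untreated replicate 1 they were 0.115 and 0.924, and without MDA-MB-453 TWEAK replicate 1 the latter was 2.25. Without SKBR3 untreated replicate 2 the former was 0.153, and without SKBR3 TWEAK replicate 2 the latter was 0.0348. The difference in share was 0.267 when a peak had to cover 50% or more of a region. The difference in percentile was 2.56 with q under 1e-05 (exact permutation p = 0.333) and 0.323 with merging across gaps. The cause was not tested. No exact p was below 0.333, the smallest these designs allow.

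The replicate block, in which libraries are swapped only within a number, kept the differences at −0.403 percentage points and −0.313 and changed no call (exact permutation p = 1, smallest 0.5). The labels do not say that a number marks a shared batch. Deviations of same-numbered libraries from their group means correlated at −0.0605 over 22588 regions in MDA-MB-453 and at 0.331 over 30803 regions in SKBR3. With 2 libraries per group, the exact permutation test used here cannot reach the usual threshold, and without read counts the signal at weak peaks was not tested.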
